A study of Homo sapiens with 2 samples.

Results

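Promoter-capture Hi-C pairs that join chromosome 13 to chromosome 22 were examined in K562, an established human chronic myelogenous leukaemia line that carries the BCR-ABL1 fusion. A member is an unordered pair of HindIII fragments, listed after DMSO or after ponatinib, with 1 end on each of these chromosomes. The rule uses position alone and found 574 pairs among the 138160 of the whole series, 257 of 84049 after DMSO and 368 of 91305 after ponatinib. Cells had received the vehicle DMSO or 100 nM of the BCR-ABL1 inhibitor ponatinib for 24 h, with 1 library per treatment. The study compared promoter contacts with and without kinase inhibition. Since a treatment has 1 library, its differences from the other could not be tested and have no replicates behind them.

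In this assay crosslinked chromatin is cut and ligated, and probes pull out the fragments that hold promoters (baits) together with whatever they were ligated to (partners). Fragments that lie on the same DNA molecule are ligated far more often than fragments of different chromosomes. A dense field of pairs between stretches of different chromosomes is a known mark of rearranged DNA, and extra copies of a stretch also add pairs. Copy number and breakpoints were not measured here, so the members are called chromosome 13 to 22 pairs. As a check of the cell line, pairs between chromosomes 9 and 22 numbered 1654 after DMSO and 1781 after ponatinib, and for 1636 and 1765 of them ABL1 was at most 1 Mb from the chromosome 9 end.

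The pairs met genes of varied function, and those described most below are these. On chromosome 13 they were MIR17HG, the host gene of the miR-17-92 cluster of growth-promoting microRNAs, GPC5 and GPC6, which encode glypicans (heparan sulfate proteoglycans of the cell surface), and NALF1, which encodes a partner of the sodium leak channel NALCN. On chromosome 22 they were V segments of IGL, the immunoglobulin lambda light chain locus, then GNAZ, which encodes a G protein alpha subunit, RAB36, which encodes a small GTPase, and BCR, the 5' partner of the fusion gene.

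The 250 bases before the start of 4 genes are shown. These are promoters, of those in the RefSeq promoter table, on the bait fragments with the most chromosome 13 to 22 pairs. LOC124903206, which also starts on the NALF1 bait, is not shown. CCDC116 and GPC5 tied at 10 pairs, and the former is shown. The sequences come from RefSeq (GRCh38.p14), written 5' to 3' on the strand of the gene, with each CG dinucleotide in capitals. The GPC6 start shown lies inside the gene body (93216529 to 94408020) that the gene table gives. IGLV3-10, GNAZ and RAB36 are named only.
NALF1, minus strand, chr13:107867497-107867746: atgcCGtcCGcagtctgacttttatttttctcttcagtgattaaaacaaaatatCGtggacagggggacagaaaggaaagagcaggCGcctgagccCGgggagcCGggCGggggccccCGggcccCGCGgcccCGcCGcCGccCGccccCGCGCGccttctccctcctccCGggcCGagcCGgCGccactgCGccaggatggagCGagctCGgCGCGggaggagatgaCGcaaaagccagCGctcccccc
GPC6, plus strand, chr13:93226557-93226806: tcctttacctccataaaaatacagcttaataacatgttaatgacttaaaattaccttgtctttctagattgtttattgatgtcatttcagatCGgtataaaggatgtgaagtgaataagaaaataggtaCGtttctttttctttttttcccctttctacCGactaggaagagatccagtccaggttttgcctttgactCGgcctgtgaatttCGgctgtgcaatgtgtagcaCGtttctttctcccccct
MIR17HG, plus strand, chr13:91347437-91347686: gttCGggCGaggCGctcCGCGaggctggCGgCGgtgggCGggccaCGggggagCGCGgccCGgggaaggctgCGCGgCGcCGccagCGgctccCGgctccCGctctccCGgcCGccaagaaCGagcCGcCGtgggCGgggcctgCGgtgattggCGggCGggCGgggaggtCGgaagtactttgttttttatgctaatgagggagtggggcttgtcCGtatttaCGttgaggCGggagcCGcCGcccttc
CCDC116, plus strand, chr22:21632510-21632759: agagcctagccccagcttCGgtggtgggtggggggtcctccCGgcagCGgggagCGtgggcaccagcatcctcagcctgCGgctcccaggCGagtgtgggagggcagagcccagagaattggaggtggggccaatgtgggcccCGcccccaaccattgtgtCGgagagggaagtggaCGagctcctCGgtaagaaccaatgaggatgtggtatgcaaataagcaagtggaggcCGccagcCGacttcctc
The MIR17HG sequence held 35 CG dinucleotides and that of NALF1 held 28. In a set of 35116 RefSeq promoters cut to the same length, 5.80% had at least 35 and 15.9% at least 28, with a median of 11. The CCDC116 sequence held 12, and the GPC6 sequence held 6 with a GC content of 37.6% against 73.2% for MIR17HG. None of the 4 held the HindIII site AAGCTT, found in 5.02% of that set, or the GATA site AGATAA on either strand, found in 9.17%.

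Chromosome 13 ends lay almost entirely in 3 stretches, of which 2 hold the genes named above. With neighbouring ends joined when at most 1 Mb apart, 421 of the 574 pairs (73.3%) ended between 89797563 and 93371226, which spans MIR17HG, most of GPC5 and the lower end of GPC6. Another 128 pairs (22.3%) ended between 107849449 and 108005335, at the promoter end of NALF1. The remaining stretch, 80549313 to 80867785, held 21 pairs (3.66%). The other 4 pairs had their ends between 46105002 and 49570350, at scattered fragments that include the CPB2 and CDADC1 baits. In single 1 Mb bins the number was highest from 91 to 92 Mb, with 119 pairs after DMSO and 158 after ponatinib. That bin holds MIR17HG and the start of GPC5.

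Chromosome 22 ends were spread over 22q11 but piled up at its far end, next to BCR. Joined at 1 Mb they formed 1 stretch, from 16037010 to 24125783. Joined at 0.5 Mb they formed 3 stretches with at least 10 pairs each. The last of these, 21616007 to 23289524, held 529 pairs (92.2%), with 239 after DMSO, 341 after ponatinib and all 51 pairs found in both lists. It runs from UBE2L3, which encodes a ubiquitin-conjugating enzyme, through IGL, GNAZ and RAB36 into BCR. The stretch from 19043108 to 20962900 held 14 pairs after DMSO and 14 after ponatinib, and the one from 16037010 to 17054260 held 2 and 12. No pair of these latter stretches was in both lists.

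Because bait ends fall where promoters were captured, partner ends were mapped apart from them. Only fragments that are not baits were counted as partners, so bait fragments such as those of GNAZ and RAB36 are missing from this map. Chromosome 13 baits reached 58 chromosome 22 partner fragments after DMSO in 80 pairs, and 111 after ponatinib in 155 pairs. The shortest stretch with 50% of these ends was 162 kb long after DMSO (22893246 to 23055046) and 269 kb long after ponatinib (22779987 to 23048524). Both start within IGL (22026076 to 22922913) and stop just before RSPH14 and GNAZ. The shortest stretch with 80% was 455 kb after DMSO (22773144 to 23228533) and 582 kb after ponatinib (22707099 to 23289524), and both run into BCR.

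**Figure D1:**
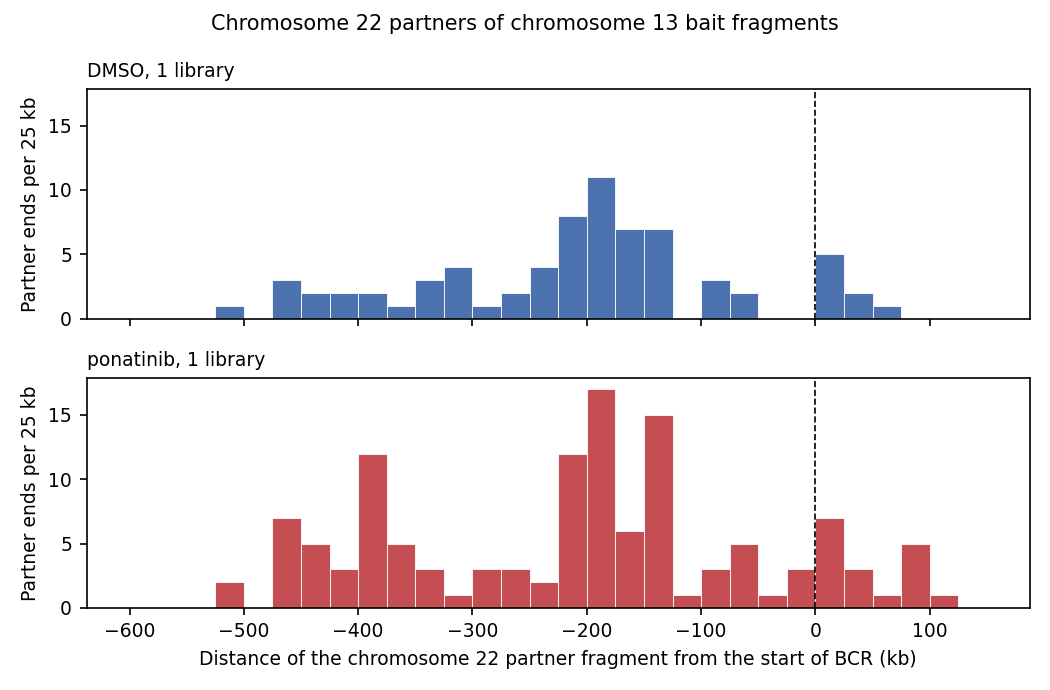
Number of chromosome 22 partner ends of chromosome 13 baits per 25 kb, against their distance in kb from the start of BCR (dashed line; positive values lie in BCR and beyond). The window holds 71 of 80 partner ends after DMSO and 126 of 155 after ponatinib, and the fullest bin, 200 to 175 kb before BCR, holds 11 and 17.

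Partners of chromosome 9 baits on the same chromosome were placed differently. Of their chromosome 22 partner ends, 253 of 1134 after DMSO (22.3%, 95% interval 19.9 to 24.8%) and 249 of 1201 after ponatinib (20.7%, 18.5 to 23.1%) lay between 16037010 and 17054260. Of the partner ends of chromosome 13 baits, 2 of 80 (2.50%, 0.304 to 8.74%) and 12 of 155 (7.74%, 4.06 to 13.1%) did. The difference was -19.8 percentage points after DMSO (-22.9 to -13.2) and -13.0 after ponatinib (-17.0 to -7.25), by Newcombe intervals. These treat ends as independent, although the ends come from few baits and those of a bait share its capture. The stretch itself was drawn from where the chromosome 13 to 22 ends fell, so the difference is a description. XKR3, a gene in this stretch, had no chromosome 13 to 22 pair.

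Seen from chromosome 22 baits, partner ends on chromosome 13 were on average denser in the short stretches at GPC6 and NALF1 than over the long stretch with MIR17HG and GPC5. In the 159 kb from 93212059 to 93371226, at the lower end of GPC6, there were 23 partner ends after DMSO and 30 after ponatinib, or 14.5 and 18.8 per 100 kb. In the 156 kb from 107849449 to 108005335, from the promoter of NALF1 outwards, there were 26 and 45, or 16.7 and 28.9 per 100 kb. The 2885 kb from 89797563 to 92682532, with MIR17HG and most of GPC5, held more ends, 103 and 114, at a lower mean density of 3.57 and 3.95 per 100 kb. Within it they were uneven, with 16 and 7 in the 100 kb above the lower end of MIR17HG and 10 and 13 in the 100 kb below it. The stretch from 80549313 to 80867785 held 10 and 13, or 3.14 and 4.08 per 100 kb. The limits of all these stretches were drawn from chromosome 13 to 22 ends, and the long one includes gaps without ends. The densities depend on these limits and are a description. Partner ends of chromosome 9 baits were likewise denser at GPC6 (112 and 119 per 100 kb) and NALF1 (112 and 117) than over MIR17HG and GPC5 (15.7 and 21.1).

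**Figure D2:**
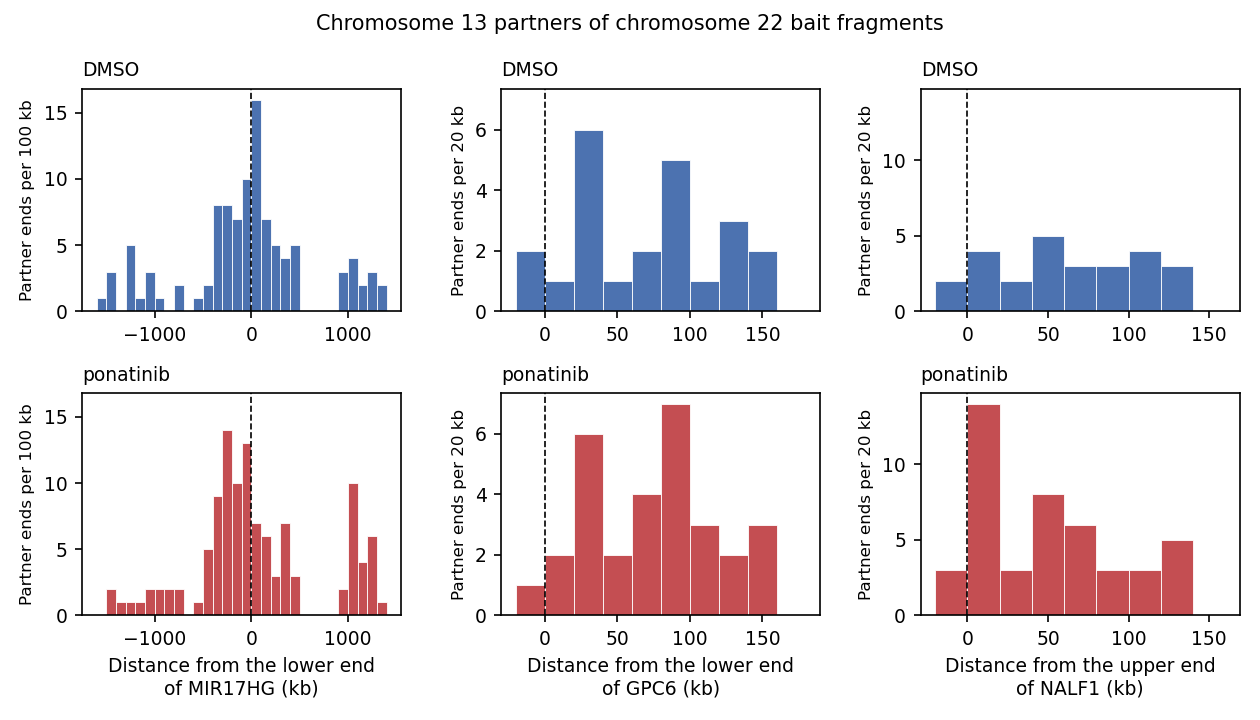
Number of chromosome 13 partner ends of chromosome 22 baits, against their distance in kb from the lower end of MIR17HG (left, per 100 kb), the lower end of GPC6 (middle, per 20 kb) and the upper end of NALF1, where that gene starts (right, per 20 kb). The windows hold 103, 23 and 26 of 164 partner ends after DMSO and 114, 30 and 45 of 202 after ponatinib; the axes differ between columns.

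The fields of ends stopped inside 4 genes, and the pairs of chromosome 9 reached as far or further there. In BCR (23180509 to 23318037) the last fragment with a chromosome 13 pair ended at 23242776 after DMSO and at 23289524 after ponatinib. The last fragment of BCR with a chromosome 9 pair was 23289525 to 23291256 in both lists, which adjoins the former one after ponatinib only. No bait fragment with an end of BCR was listed. As a partner it had 8 pairs after DMSO and 18 after ponatinib, over 14 fragments, with 3 pairs in both. In GPC6 (93216529 to 94408020) the last end was at 93368471 after DMSO and at 93371226 after ponatinib, the latter also the last end of the chromosome 9 pairs in both lists. The remaining 1037 kb of GPC6 held 7 listed fragments with 5 and 3 pairs of any kind, and none with chromosome 9.

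In NALF1 (107163510 to 107867496) the ends covered the promoter end alone. The lowest end lay at 107849449, and the 686 kb of the gene below it held 4 listed fragments with 6 and 7 pairs, of which 1 and 2 were with chromosome 9. In GPC5 (91398621 to 92867237) the last end lay at 92682532. The 185 kb of the gene above it held 4 listed fragments with 0 and 6 pairs, of which 0 and 2 were with chromosome 9. Among the gaps between ends was one of 478 kb within GPC5 (91822523 to 92300747), where 7 listed fragments had 18 and 20 pairs of any kind and 8 and 11 with chromosome 9. Another was the 530 kb between the GPC5 and GPC6 fields (92682533 to 93212058), with 12 and 17 pairs with chromosome 9.

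Of 22 genes listed for 13q31 to 13q33, 16 had an end inside a listed bait fragment (GPC6, whose outer end lies on another fragment than its bait, is not among them) and 4 had a chromosome 13 to 22 pair at any end. These were GPC5 with 43 pairs after DMSO and 51 after ponatinib, GPC6 with 33 and 53, NALF1 with 29 and 51, and MIR17HG with 8 and 10. The other genes of the list had none, among them DCT and TGDS next to GPC6 and LIG4 above NALF1. CLYBL, looked up beside the list, had none either, and DCT had no end inside a listed bait. Of 19 genes listed for 22q11.2, 15 had an end inside a listed bait and 9 had a pair. Those with the most were RAB36 (13 and 22), BCR (8 and 18) and IGLL5 (4 and 9). PPM1F had 2 and 3, CRKL, which encodes an adaptor bound by BCR-ABL1, had 1 and 1, and HIRA, a histone chaperone gene, had 1 and 1. IGLL1, SMARCB1, MIF and GGT1, beyond BCR, had none, but only GGT1 of these had an end inside a listed bait. From 23289525 to 24101714, after the last end in BCR, 5 listed fragments had 9 and 11 pairs of any kind. Of these, 7 and 8 were with chromosome 9, at 1 fragment still inside BCR, so few listed pairs lay beyond the gene. CABIN1, beyond BCR but outside the list, had 0 and 1. In all, the ends overlapped 142 genes, 36 of them protein coding, and 124 of the genes of the table had an end inside such a fragment.

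Few baits carried the pairs. There were 36 baits with at least 1 pair, 11 on chromosome 13 and 25 on chromosome 22, and the 9 with the most took part in 505 of the 574 pairs (88.0%). The bait with the most, chr22:22809093-22816186, holds the V segment IGLV3-10 and had 71 pairs after DMSO and 87 after ponatinib, 10 of them in both. Its neighbour chr22:22816187-22825632, with IGLV3-9 and IGLV2-8, had 30 and 38, with 5 in both. V segments resemble each other in sequence, so reads of these fragments may be less certain. Nearer BCR, the GNAZ bait (23069351 to 23083458) had 22 and 25 and the RAB36 bait (23144401 to 23152974) had 13 and 20.

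On chromosome 13 the leading bait, chr13:91379129-91383942, holds no gene end of the table. It lies 24.6 kb above MIR17HG and 14.7 kb below GPC5, and had 38 pairs after DMSO and 72 after ponatinib, 17 of them in both. The NALF1 bait (107858849 to 107870016), which also holds an end of LOC124903206, had 27 and 48, with 8 in both. The GPC6 bait (93222549 to 93235872), which holds the start of GPC6 in the RefSeq promoter table, inside the gene body of the gene table, had 12 and 23, with 3 in both. MIR17HG's own bait (91345867 to 91352737) had 8 and 9 with none in both, and the GPC5 bait (91396362 to 91406236) had 5 and 7 with 2 in both. The bait without a gene end thus had more pairs than the baits of MIR17HG and GPC5 on its either side.

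**Figure D3:**
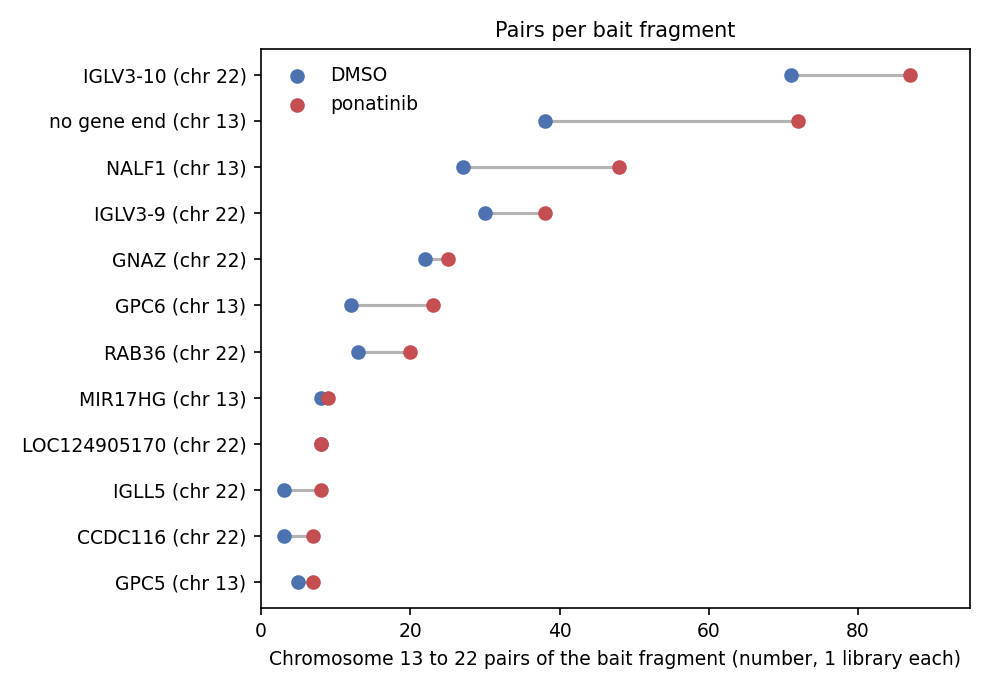
Number of chromosome 13 to 22 pairs of each bait fragment with at least 10 over both lists, after DMSO and after ponatinib, 1 library each; each row is named by a gene of the fragment, and the points of LOC124905170 coincide at 8. The IGLV3-10 bait is highest in both, at 71 and 87, and the widest gap is at the chromosome 13 bait with no gene end, at 38 and 72.

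Single baits mostly met the stretches named above, which were drawn from these same ends, so their shares are a description. The stretch from UBE2L3 to BCR held 239 of all 257 pairs after DMSO and 341 of all 368 after ponatinib. The chromosome 13 bait with no gene end had 34 of its 38 pairs after DMSO and 62 of its 72 after ponatinib there. The NALF1 bait had 24 of 27 and 44 of 48 there, and the GPC6 bait 12 of 12 and 21 of 23. The MIR17HG bait had 5 of 8 and 5 of 9 there and 3 and 2 between 19043108 and 20962900, on few pairs, none of them in both lists. From the other side, the IGLV3-10 bait had 57 and 71 pairs between 89797563 and 93371226 and 9 and 13 at NALF1. The RAB36 bait had 9 and 11 in the former and 4 and 8 at NALF1. Of 129 chromosome 22 partner fragments 50 (38.8%) were reached from at least 2 chromosome 13 baits. Of 253 chromosome 13 partner fragments 64 (25.3%) were reached from at least 2 chromosome 22 baits. For these 2 shares no background was computed. Baits stood at both ends of 22 pairs, 13 after DMSO and 11 after ponatinib.

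More chromosome 13 to 22 pairs were listed after ponatinib than after DMSO, at most of the baits named above. The numbers were 368 and 257, a ratio of 1.43 (exact binomial 95% interval 1.22 to 1.69), against 1.09 (1.08 to 1.10) for all other pairs of the lists. As a share of listings in both lists, 58.9% were in ponatinib (54.9 to 62.8%), against 52.0% of all other pairs, a difference of 6.84 percentage points (2.93 to 10.6). The ratio was 1.08 (1.01 to 1.15) for pairs between chromosomes 9 and 22, whose share in ponatinib was lower than that of the chromosome 13 to 22 pairs by 7.03 points (2.79 to 11.18). It was 1.23 (1.13 to 1.33) between chromosomes 9 and 13, a difference of 3.76 points (-0.615 to 8.05) that is not resolved. Of all pairs between chromosomes, chromosome 13 to 22 pairs made up 4.04% after DMSO (3.57 to 4.56%) and 5.41% after ponatinib (4.89 to 5.98%). These intervals cover counting error and treat pairs as independent, although pairs of a bait share its capture, and read depth is unknown.

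The excess lay mostly in pairs captured from chromosome 13. Pairs with a bait on chromosome 13 alone numbered 80 after DMSO and 155 after ponatinib, a ratio of 1.94 (1.47 to 2.57). Pairs with a bait on chromosome 22 alone numbered 164 and 202, a ratio of 1.23 (0.997 to 1.52). The share in ponatinib was 66.0% and 55.2%, a difference of 10.8 points (2.74 to 18.5). By chromosome 13 stretch, the ratio was 1.75 (1.24 to 2.51) at NALF1, 1.54 (0.990 to 2.43) at GPC6 and 1.33 (1.07 to 1.64) over MIR17HG and GPC5, intervals that overlap. Without the chromosome 13 bait that has no gene end, the whole number was 219 and 296, a ratio of 1.35 (1.13 to 1.62).

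The other pairs of these baits did not show one direction. The chromosome 13 bait with no gene end had 52 pairs within chromosome 13 after DMSO and 29 after ponatinib, and 44 and 54 with chromosome 9. IGLV3-10 had 43 and 26 within chromosome 22 and 63 and 69 with chromosome 9. NALF1 had 377 and 434 within chromosome 13 and 59 and 57 with chromosome 9, and the GPC6 bait had 374 and 383 and 54 and 48. Over the 12 baits with at least 10 chromosome 13 to 22 pairs, these numbered 240 and 352 (a pair with both ends among them counts for each), against 533 and 583 with chromosome 9 and 936 and 972 within the chromosome.

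Bait by bait, most had more pairs after ponatinib, but few reached a 2-fold difference. Of 14 baits with at least 5 pairs over both lists, 11 (78.6%) had more after ponatinib, 2 fewer and 1 as many. Over all baits with at least 5 pairs of any kind, 50.1% had more after ponatinib, and over those with at least 5 pairs between chromosomes, 54.4% did. At least 2-fold more, with 1 added to each number, were found at 2 of the 14 (14.3%), IGLL5 with 3 and 8 and CCDC116 with 3 and 7. The background was 10.5% of all baits and 6.67% by pairs between chromosomes. At least 2-fold fewer were found at 1 (7.14%), the bait with IGLV2-5 and IGLV3-4, with 5 and 1, against 7.17% and 2.22%. With 14 baits, 2 and 1 calls cannot be told apart from these background shares.

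Scores took few values. The commonest was 8.75 after DMSO (176 of 257 pairs, 68.5%) and 8.52 after ponatinib (236 of 368, 64.1%), and these were the medians too. Pairs at the next common values numbered 41 at 15.81, 16 at 23.09, 5 at 30.55 and 2 at 38.17 after DMSO. After ponatinib they numbered 76 at 15.5, 33 at 22.7, 6 at 30.08 and 3 at 37.62. Each value is slightly lower after ponatinib, so a score was compared between lists by its place in this order. Pairs at 7.88, 14.64, 28.8 and 36.13 after DMSO and at 7.58 and 14.25 after ponatinib all had baits at both ends. The definition of the score is not given in the sources used here.

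**Figure D4:**
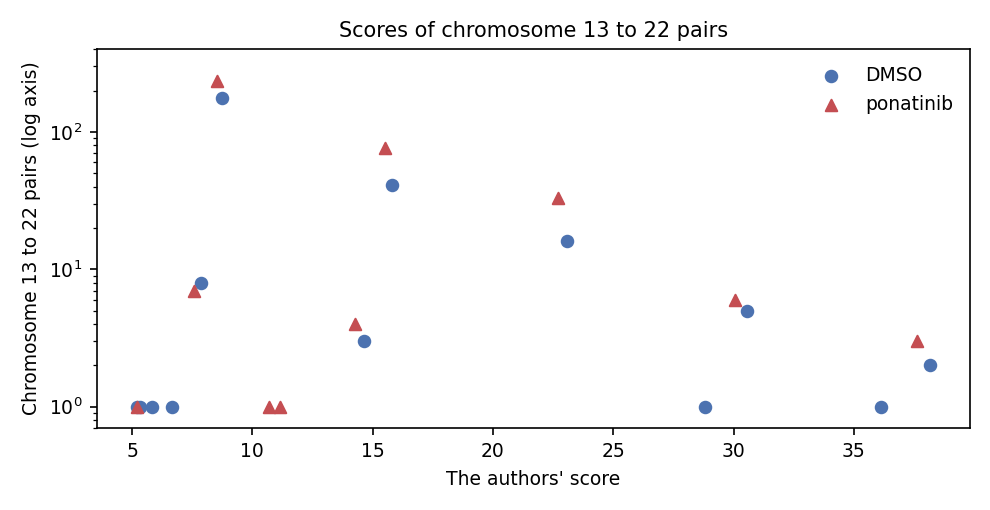
Number of chromosome 13 to 22 pairs (log axis) at each value of the authors' score, after DMSO (circles) and after ponatinib (triangles). Most pairs share the lowest common value, 176 at 8.75 and 236 at 8.52, and the number falls at each of the next common values.

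Scores were lower than those of the chromosome 9 pairs. A score of at least 10 was held by 26.8% of chromosome 13 to 22 pairs after DMSO (21.5 to 32.7%) and 33.7% after ponatinib (28.9 to 38.8%). Between chromosomes 9 and 22 it was 71.6% (69.3 to 73.7%) and 74.0% (71.9 to 76.0%), and between chromosomes 9 and 13 it was 56.4% (53.4 to 59.4%) and 57.0% (54.3 to 59.7%). Among all other pairs between chromosomes it was 10.7% and 10.8%. The highest score was 38.17 after DMSO and 37.62 after ponatinib, against 1682.28 and 1874 between chromosomes 9 and 22 and 402.85 and 456.3 between chromosomes 9 and 13. Above the commonest value there were 69 pairs after DMSO and 124 after ponatinib, a ratio of 1.80 (1.33 to 2.45), and at it 176 and 236, a ratio of 1.34 (1.10 to 1.64).

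The highest scores belonged to the same baits, without 1 leading pair. After DMSO the top value was shared by the bait with no gene end, with the fragment 22958658 to 22960517, and by the NALF1 bait, with 22984076 to 22984521, both between IGL and GNAZ. The former pair was not listed after ponatinib, and the latter had 15.5 there. After ponatinib the top value was shared by the bait with no gene end, with 23021290 to 23040003 and with 23042360 to 23045955, and by the NALF1 bait, with 22976944 to 22980779. Of these the first had 30.55 after DMSO and the others were not listed. A fragment in BCR (23194208 to 23199488) met the bait with no gene end at 30.55 after DMSO and 22.7 after ponatinib. Within 0.1 Mb of the top pairs, at both ends, 61.1% and 36.8% of pairs after DMSO and 51.4%, 48.5% and 54.5% after ponatinib scored above the commonest value. From 0.1 to 0.5 Mb the shares were 23.6% and 35.7% after DMSO and 32.4%, 33.6% and 36.8% after ponatinib. Beyond 2 Mb the range over these top pairs was 24.5 to 27.3% after DMSO and 31.2 to 32.0% after ponatinib. These centres were picked by their scores, and 2 of the ponatinib ones share a bait and lie close together, so their shares overlap. A fall with distance was not tested.

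The identical pair was in both lists for 51 of the 574 pairs (8.89%, 6.69 to 11.5%), against 26.9% of the union for all pairs. This is 19.8% of the DMSO pairs (15.1 to 25.3%) and 13.9% of the ponatinib pairs (10.5 to 17.8%). The share of the DMSO list was 68.4% between chromosomes 9 and 22, 53.6% between chromosomes 9 and 13, 45.4% within a chromosome and 5.43% for other pairs between chromosomes. Chromosome 13 to 22 pairs were different from the first of these by -48.5 points (-53.5 to -42.8) and above the last by 14.4 points (9.92 to 19.8), by Newcombe intervals. With both ends matched within 5 kb by fragment midpoints the share of the DMSO pairs was 33.5% (27.7 to 39.6%), and within 10 kb it was 54.1% (47.8 to 60.3%).

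**Figure D5:**
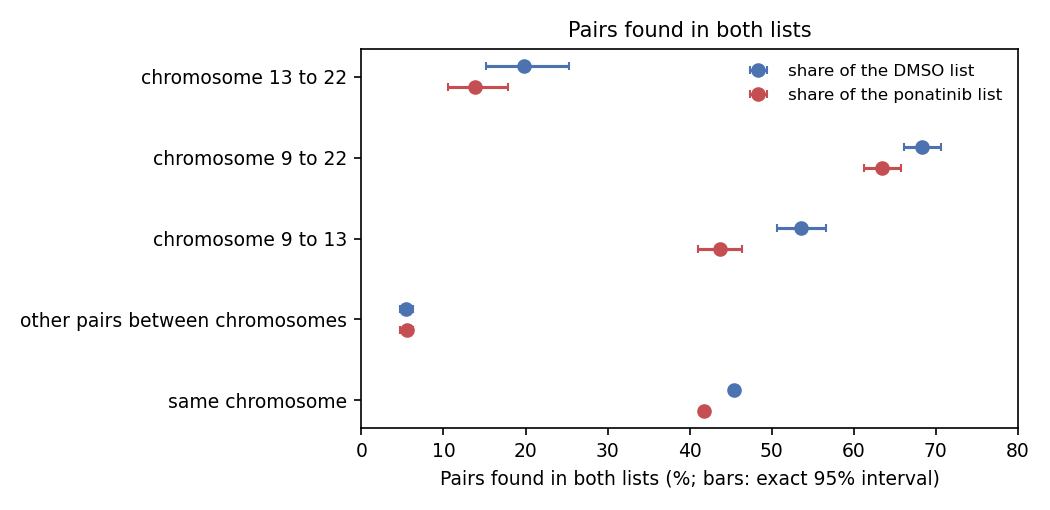
Share of pairs (in %) whose identical fragments were in both lists, as a share of the DMSO and of the ponatinib list, for each kind of pair; bars are exact binomial 95% intervals. Chromosome 13 to 22 pairs, at 19.8% and 13.9%, lie between the chromosome 9 pairs and the other pairs between chromosomes.

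Fewer pairs were found in both lists also at equal scores. Of the pairs at the commonest value, 8.75 after DMSO, 29 of 176 (16.5%) were in the ponatinib list too, against 39.6% between chromosomes 9 and 22 and 34.6% between chromosomes 9 and 13. The differences were -23.1 points (-29.8 to -15.5) and -18.1 points (-24.7 to -10.6). Above that value 20 of 69 (29.0%) were in both, against 80.4% and 68.9%, but here the scores are not equal, since those of the chromosome 9 pairs reach far higher. By stretch, 18 of the 53 DMSO pairs at NALF1 (34.0%, 21.5 to 48.3%) were in both lists, 8 of 35 at GPC6 (22.9%) and 23 of 156 over MIR17HG and GPC5 (14.7%, 9.58 to 21.3%). Of the 51 shared pairs 49 had 1 of the 5 common values in both lists. Of these 20 kept their place in the order, 19 were higher after ponatinib and 10 lower.

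Fragments of these pairs were mostly fragments that met chromosome 9 as well. Inside the stretches joined at 0.5 Mb, 233 of 260 chromosome 13 ends (89.6%) and 144 of 151 chromosome 22 ends (95.4%) also had a pair with chromosome 9 in either list. Of the other listed fragments there, 72.3% and 74.5% had one, a difference of 17.3 points (11.7 to 22.3) and 20.8 points (14.8 to 25.9). Ends of chromosome 13 to 22 pairs have a pair between chromosomes by rule. The other fragments may have pairs within their chromosome alone. The difference can come from this choice of fragments, so it is a description. Its intervals treat fragments as independent, although those reached from the same bait share its capture. Both ends of a pair met chromosome 9 in the same list for 201 of 257 pairs after DMSO (78.2%) and 333 of 368 after ponatinib (90.5%). They met the same chromosome 9 fragment in 36 (14.0%) and 31 (8.42%). A fragment with an end of NUP214, a nuclear pore gene, was the common one in 21 and 19 pairs, and after ponatinib a fragment with an end of LOC124900284 was so in 19 too. The median length of the end fragments was 2894 bp on chromosome 13 and 3897 bp on chromosome 22, against 2947 and 4000.0 bp of all listed fragments there.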

How the data were processed

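Promoter-capture Hi-C was measured in 1 library of K562 cells per treatment. The authors deposited 1 list per library, with a bait fragment, its partner and a score per line; the score is the authors' own value, and none lies below 5. The submitters' processing notes name hg38. How reads were aligned, how pairs were called and what the score means is not given in the sources used. Read depth is unknown.

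Members and gene lists were chosen with earlier results of these data known. The first fragment of a line was taken as the bait, and a fragment counted as a bait if either list has it so. Genes came from a RefSeq table of GRCh38.p14, a build of the same coordinates, and a bait was named by gene ends inside it, or by the gene start of the RefSeq promoter table. Named genes were 13 fixed names, genes of the baits with the most pairs, of the highest scores, at the outer fragments and of 2 gene lists, plus baits past the 2-fold rule; not all are printed. A gathering of ends had at least 10 pairs. Shares and ratios have exact 95% intervals (Clopper-Pearson) and differences have Newcombe's. Python 3.11.15, scipy 1.17.1 and pandas 2.3.3 were used, and the interval and gathering code was tested on simulated data. Alternatives were score minimums, equal list lengths, matching and joining distances, and leading baits left out.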

Additional observations from a re-analysis of the deposited data

How the results depend on the processing

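No paired analysis was possible because each treatment has 1 library. Of 50 values recomputed under alternatives, 13 moved by more than their interval or, for counts, by more than 1.5 times. A turn to the other direction was defined for the ratio of the lists alone, and the ratio did not turn. The other 37 stayed within these limits. Among them were the chromosome 13 gatherings, which numbered 2 with scores of at least 10 and 4 when joined at 0.5 Mb, in place of 3. The baits with 2-fold more pairs, 3 in place of 2 with scores of at least 10, were among them too. Equal list lengths cut the lowest scores of the ponatinib list. This removed none of the 257 and 368 chromosome 13 to 22 pairs, so values that rest on these pairs alone could not move there. With scores of at least 7 the share of pairs between chromosomes that are chromosome 13 to 22 pairs was 6.28% after DMSO and 8.16% after ponatinib, and chromosome 22 ends formed 2 gatherings in place of 1. With scores of at least 10 the ratio was 1.80, the shares were 3.11% and 4.86%, the median scores 15.81 and 15.5, and 0 baits had 2-fold fewer pairs, as also with at least 10 pairs per bait (0). Joined at 0.5 Mb, chromosome 22 ends formed 3 gatherings. The share of DMSO pairs found in both lists was 33.5% with ends matched within 5 kb and 54.1% within 10 kb; wider matching accepts more pairs by construction. The ratio lay between 1.35 and 1.80 under all alternatives run, and 1.35 was that without the leading chromosome 13 bait, an alternative chosen after seeing the data, as were the split by score and the CG counts of promoters. Depth is unknown, so no value was corrected for it.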
